A study of Mus musculus with 2 samples.

Results

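The integrated stress response was followed here through 10 of its genes: Ddit3, Chac1, Trib3, Atf3, Atf4, Atf5, Asns, Sesn2, Psat1 and Ppp1r15a. They were chosen by symbol, with earlier results of these data known. All 10 were measured, through 12 array features, among 22485 named genes and 44397 features in all. Mouse embryonic stem (ES) cell RNA was hybridised to dual-colour Agilent expression arrays, 1 array for a Utx knockout line and 1 for the wild-type line V6.5. Utx is an X-linked demethylase that removes the repressive histone mark H3K27me3. On each array, cells of the line after 48 h in 100 nM retinoic acid (RA) without leukaemia inhibitory factor (LIF) were set against cells of the same line kept undifferentiated on gelatin with LIF. RA is a morphogen that drives ES cells to differentiate, and LIF is the cytokine that holds them undifferentiated. RA addition and LIF withdrawal came together on both arrays and cannot be told apart. The labels do not say whether the knockout line is 1 clone.

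In the integrated stress response, kinases that sense amino acid shortage, misfolded protein, haem shortage or double-stranded RNA phosphorylate the translation initiation factor eIF2. General protein synthesis then slows, while upstream open reading frames let the mRNA of the transcription factor ATF4 be translated more. ATF4 and its partner CHOP switch on genes of amino acid synthesis and transport, tRNA charging and cell death, often through a composite site for a C/EBP and an ATF protein. Because ATF4 is set largely by translation, the level of its mRNA is not a measure of its activity.

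Each gene was read as its RA response on a log2 scale, treated cells over untreated cells, once in the knockout and once in V6.5, where 0 is no change and -1 is 2-fold lower after RA. The direction is the likely one from the dyes, and the RA targets went with it: of 6 measured, Stra8, Cyp26a1, Rarb, Hoxb1 and Dhrs3 (5) rose in limma's fit over both arrays and 0 fell (0 also at an unadjusted p under 0.05 and with robust eBayes), with medians of 2.87 in the knockout and 2.74 in V6.5. Ratios hold no levels, so the presence of ES cell markers could not be checked. Of 12 such markers, 5 fell (Klf4, Pou5f1, Tbx3, Tfcp2l1 and Dppa4) and 0 rose, with 10 down and 0 up at an unadjusted p under 0.05 and 5 and 0 with robust eBayes; the call of Tfcp2l1 was lost when its 2 features were fitted alone (adjusted p = 0.0514 in limma). Below 0 on both arrays stood 10 of the 12. Nanog (-0.16 in the knockout, 0.29 in V6.5), Klf2 (-0.70 in the knockout, 0.07 in V6.5) and Tdgf1 (-2.16 in the knockout, -0.68 in V6.5) did not pass. Sox2, Zfp42, Esrrb and Utf1, below 0 on both arrays, did not pass either. Counts in the fit stand against 7.93% of all genes that fell and 8.93% that rose. Counts at an unadjusted p under 0.05, here and below, stand against 17.9% of all genes that fell and 16.8% that rose at that level, and counts with robust eBayes against 7.8% and 8.79%. With 1 array per line there is no replicate check of any value of a single line or of any difference between lines. The 2 columns of features correlated at 0.836 across features, which are not independent of each other and not replicates.

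The core of the composite C/EBP-ATF site, TGATGNAA, was searched on both strands in windows of 300 bases, 250 before and 50 after the RefSeq gene start of assembly GRCm38.p6. All 10 members had a window, 12 windows in all, and 4 windows of 4 members held the core, against 3.97% of all 32851 windows. The stretches below show it in these 4 members and in Nupr1 and Tars, genes of related stress lists described further on, with the core in capitals, read 5′ to 3′ on the strand of the gene. In all but Asns the core lay on the opposite strand, so the capitals show its reverse complement.

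Chac1, chr2:119351023-119351082, plus strand: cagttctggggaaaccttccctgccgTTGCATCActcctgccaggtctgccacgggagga
Trib3, chr2:152344028-152344057, minus strand: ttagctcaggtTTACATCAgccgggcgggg
Atf3, chr1:191183410-191183469, minus strand: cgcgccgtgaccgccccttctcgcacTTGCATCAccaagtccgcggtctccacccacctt
Asns, chr6:7693210-7693269, minus strand: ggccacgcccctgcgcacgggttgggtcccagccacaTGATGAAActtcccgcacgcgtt
Nupr1, chr7:126625547-126625606, minus strand: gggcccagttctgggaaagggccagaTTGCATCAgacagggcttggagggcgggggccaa
Tars, chr15:11399659-11399718, minus strand: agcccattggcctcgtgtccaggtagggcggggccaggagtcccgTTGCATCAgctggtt

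The first base of the core stood at -193 in Chac1, -110 in Atf3 and in Nupr1, -23 in Asns, -15 in Tars and 15 in Trib3, counted from the gene start as 1 and with no 0. The windows of Ddit3, Atf4, Atf5, Sesn2, Psat1 and Ppp1r15a held no match, which says only that these letters are not in those windows. Ppp1r15a instead held the full cAMP response element TGACGTCA, a site bound by ATF and CREB proteins, which 1.79% of all windows hold on either strand. It reads the same on both strands and stood at -12, in capitals here.

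Ppp1r15a, chr7:45526269-45526328, minus strand: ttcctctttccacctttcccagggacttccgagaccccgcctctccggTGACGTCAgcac

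Of the 10 members, 4 fell with RA in the fit over both arrays and 0 rose. Those that fell were Ddit3, Chac1, Psat1 and Sesn2, by 1.44-fold to 2.0-fold as the mean of both arrays. In this limma fit, 7.93% of all genes fell and 8.93% rose at a Benjamini-Hochberg adjusted p under 0.05. The members were chosen with earlier results of these data known, so these shares are no test of them as a set. At an unadjusted p under 0.05, 6 members fell and 0 rose, where 17.9% of all genes fell and 16.8% rose. With robust eBayes 4 members fell and 0 rose, where 7.8% of all genes fell and 8.79% rose. Tested against a change of 1.5-fold with limma's treat, 0 members passed, where 0.431% of all genes fell and 0.872% rose. The median of the members was -0.45 in the knockout and -0.31 in V6.5, against -0.02 in both lines over all genes. Below 0 on both arrays stood 8 members, as did 41.2% of all genes. The fit takes the lines as 2 samples of 1 response, so its p-values rest only on spread between these arrays. Through eBayes that spread is drawn for the larger part from all genes, with 2.98 prior and 1 residual degrees of freedom. An SE given below is therefore mostly not the measured spread of its own gene. A bias of 1 dye at a gene is part of the mean.

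Fewer cells of a type and less RNA per cell cannot be told apart in such RNA. Markers of fibroblasts, which serve as feeders in ES cell culture, moved the same way as the members that fell: 8 of 11 fell and 0 rose, with 0 up also at an unadjusted p under 0.05 and with robust eBayes. Those that fell were Lox, Col3a1, Col1a1, S100a4, Postn, Col1a2, Thy1 and Fbln2. Over all 11, the median was -1.36 in the knockout and -1.01 in V6.5. At least 2-fold lower were 7 in the knockout and 6 in V6.5, against 1.65% and 1.59% of all genes. The ratios of the 11 ran from -2.63 to 0.32 in the knockout and from -2.12 to 0.05 in V6.5. The 3 that did not pass were Pdgfra (0.32 in the knockout, 0.05 in V6.5), Dcn (-0.05 in the knockout, -0.38 in V6.5) and Lum (-0.08 in the knockout, -0.19 in V6.5). The untreated cells were kept on gelatin, as given above. Levels of the fibroblast markers are not known from ratios, and their part in the results on stress genes was not tested.

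**Figure D1:**
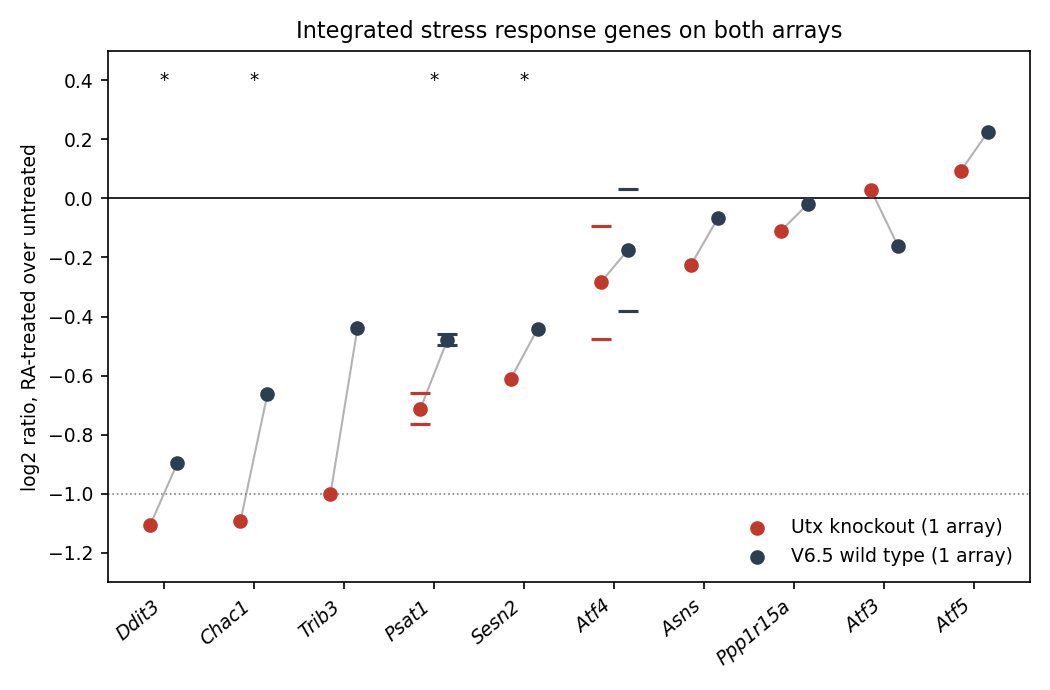
Log2 ratio of RA-treated to untreated cells (y axis) for each of the 10 members (x axis, by mean ratio), with the Utx knockout array in red on the left of each pair and the V6.5 array in dark blue on the right. Circles are gene values, short bars the single features of Atf4 and Psat1, the dotted line marks 2-fold lower and asterisks mark the 4 genes that fell in limma; the knockout circle is the lower one in 9 of 10 genes.

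The effectors of the late response carried the lowest ratios of the members in the knockout, and the lowest means of both arrays. Ddit3 encodes CHOP, the bZIP factor that favours cell death when stress persists. It had a log2 ratio of -1.10 in the knockout and -0.90 in V6.5, which is 2.15-fold and 1.86-fold lower after RA. Both arrays thus showed it lower by a similar amount, and it fell by 1.00 ± 0.09 (limma's moderated SE, n = 2 arrays; adjusted p = 0.0133). Among all genes, 1.25% had a lower ratio in the knockout and 2.12% in V6.5.

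Chac1 encodes an enzyme that breaks down glutathione and is a target of ATF4 and CHOP. Its ratio was -1.09 in the knockout and -0.66 in V6.5, or 2.13-fold and 1.58-fold lower. The gene fell by 0.88 ± 0.13 (limma, SE, n = 2 arrays; adjusted p = 0.0280). Trib3, a pseudokinase that CHOP and ATF4 induce and that binds ATF4 in turn, had -1.0 in the knockout and -0.44 in V6.5. It was lower on both arrays, 2.0-fold and 1.36-fold, but did not pass in limma (adjusted p = 0.0559), and 2 of 7 other settings brought it past the threshold; its adjusted p ran from 0.0486 to 0.0631 over the settings without treat.

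As means of both arrays, metabolic and growth-control members were lower by less. Psat1, the aminotransferase of serine synthesis, had -0.71 in the knockout and -0.48 in V6.5 as means of 2 features. The features were close to each other, at -0.76 and -0.66 in the knockout and at -0.50 and -0.46 in V6.5. Psat1 fell by 0.59 ± 0.09 (limma, SE, n = 2 arrays; adjusted p = 0.0310). Sesn2, a leucine-sensing restraint on mTORC1 that p53 also induces, had -0.61 in the knockout and -0.44 in V6.5. The mean ratio of Sesn2 was -0.53 ± 0.08 and it fell by the test (adjusted p = 0.0319 in limma). Asns, which makes asparagine and whose promoter stretch above holds the core, had -0.23 in the knockout and -0.07 in V6.5 and did not pass (adjusted p = 0.296 in limma).

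The upstream factors and the feedback phosphatase did not pass at the gene level. Atf4, the factor at the centre of the response, had -0.28 in the knockout and -0.18 in V6.5 over 2 features, with an adjusted p of 0.127 in limma and a range of 0.124 to 0.830 over the settings without treat. Its features disagreed. The first read -0.09 in the knockout and 0.03 in V6.5, the second -0.47 in the knockout and -0.38 in V6.5. Fitted as features in limma, the first had an adjusted p of 0.830 and the second 0.0394. The SD between them was 0.27 in the knockout and 0.29 in V6.5, against medians of 0.14 in both lines for genes with several features, so the gene value of Atf4 depends on which feature is read.

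Atf5, a close relative of ATF4 whose mRNA is likewise controlled by upstream reading frames, was the member above 0 on both arrays. It had 0.09 in the knockout and 0.22 in V6.5 (adjusted p = 0.251 in limma). Atf3, a bZIP factor induced early in many stresses, had 0.030 in the knockout and -0.16 in V6.5 (adjusted p = 0.649 in limma). Ppp1r15a encodes GADD34, which brings a phosphatase to eIF2 and ends the response. Its ratios of -0.11 in the knockout and -0.02 in V6.5 were near 0 (adjusted p = 0.602 in limma).

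Past 2-fold stood 3 members in the knockout, Ddit3, Chac1 and Trib3, all lower, and 0 members in V6.5. Over all genes, 1.65% were at least 2-fold lower in the knockout and 1.59% in V6.5, and 2.92% were at least 2-fold higher in the knockout and 2.52% in V6.5. At 1.5-fold, 5 members were lower in the knockout, with Psat1 and Sesn2 added, and 2 in V6.5, Ddit3 and Chac1, where 5.06% of all genes were this much lower in the knockout and 5.36% in V6.5. At this bound 0 members were higher in either line, against 7.28% of all genes in the knockout and 6.69% in V6.5.

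The knockout ratio was the lower one for 9 of the 10 members, for 80 of the 125 related stress genes described below, and for 49.3% of all genes. The difference, knockout minus V6.5, had a median of -0.16 over the members and 0.00 over all genes. It was -0.56 for Trib3 and -0.43 for Chac1, which is a knockout ratio 1.48-fold and 1.35-fold below that of V6.5. Among all genes, 2.07% had a difference below that of Trib3 and 3.94% below that of Chac1. Psat1 had -0.23, Ddit3 -0.21 and Sesn2 -0.17, and the other members lay between -0.16 and 0.19. At a bound of 2-fold, 0 members differed between the lines, where 0.467% of all genes were below and 0.583% above. At 1.5-fold the count was also 0 members, against 1.88% below and 2.5% above. These differences rest on 1 array each and have no test.

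**Figure D2:**
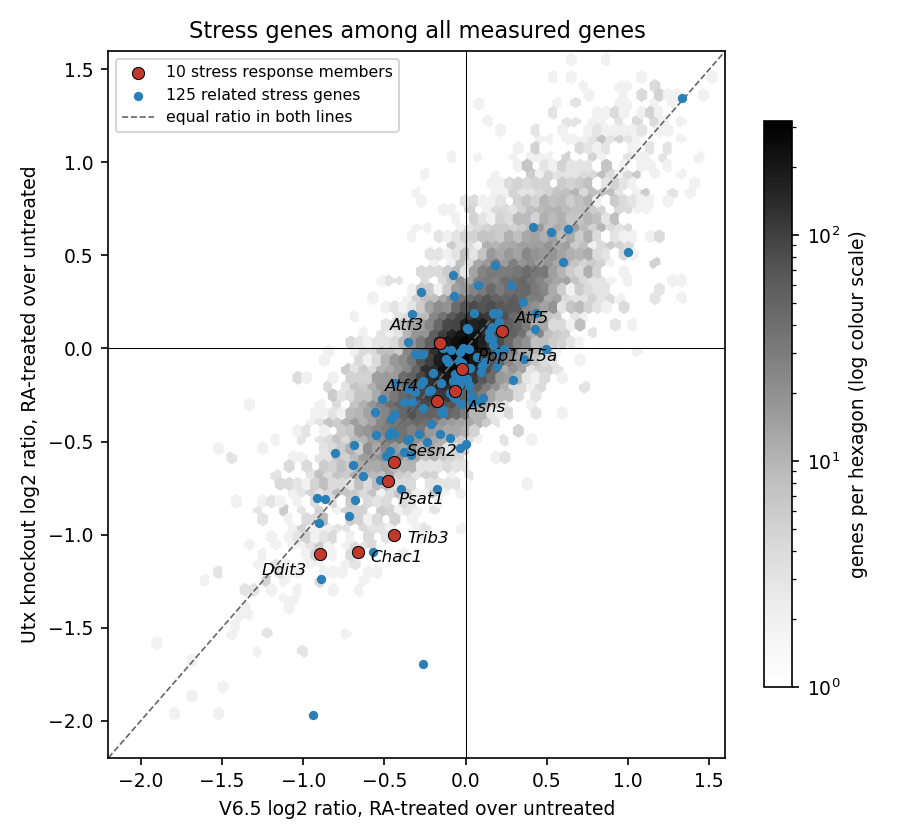
Log2 ratio of RA-treated to untreated cells in the Utx knockout (y axis) against V6.5 (x axis) for 22125 genes, in grey hexagons whose shade is the number of genes on a log scale; 360 genes outside the frame are not drawn. Red circles are the 10 members and blue points 125 related stress genes; Ddit3, Chac1 and Trib3 lie lowest among the members on the knockout axis, and 9 of 10 members lie below the dashed line of equal ratio.

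Other genes of the pathway were read in 8 lists, 125 distinct genes in all, also chosen with earlier results of these data known. Together, 27 fell and 6 rose, 21.6% and 4.80%, against 7.93% and 8.93% of all genes in the same limma fit. Their median was -0.19 in the knockout and -0.08 in V6.5. By list, the knockout ratio was the lower one for 4 of 12 amino acid transporters at the least. At the most it was so for 14 of 17 genes of eIF2 kinases, eIF2, eIF2B and phosphatase subunits.

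Part of the genes of amino acid supply and tRNA charging fell, and 0 of them rose. Of 19 cytosolic aminoacyl-tRNA synthetases, which load amino acids onto tRNAs, 8 fell and 0 rose in limma, with 13 and 0 at an unadjusted p under 0.05 (17.9% and 16.8% of all genes) and 8 and 0 with robust eBayes. The list median was -0.29 in the knockout and -0.33 in V6.5. Tars (threonine) had -0.68 in the knockout and -0.63 in V6.5, and fell by 0.66 ± 0.07 (limma, SE, n = 2 arrays; adjusted p = 0.0182). Mars1 (methionine), Rars (arginine) and Lars (leucine) fell by 0.53, 0.51 and 0.47. Cars (cysteine), with -0.76 in the knockout and -0.17 in V6.5, did not pass. Yars (tyrosine), with -0.29 in the knockout and -0.38 in V6.5, did not pass either.

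Of 12 amino acid transporters, 5 fell and 0 rose, with 6 and 0 at an unadjusted p under 0.05 and 4 and 0 with robust eBayes in limma. Slc7a3, a carrier of cationic amino acids, had -0.81 in the knockout and -0.86 in V6.5. Slc7a5 and Slc3a2, the light and heavy chains of a large neutral amino acid exchanger, fell by 0.66 and 0.45, the first a call lost when its features were fitted alone (adjusted p = 0.0536 in limma), and Slc7a1, another cationic carrier, fell by 0.39. Slc43a1, with -0.57 in the knockout and -0.34 in V6.5, was the fifth (adjusted p = 0.0499 in limma) and lost its call with robust eBayes. Slc1a5, a glutamine carrier, had -0.18 in the knockout and -0.44 in V6.5, and Slc38a1 had 0.19 in the knockout and 0.20 in V6.5, without passing. The list median was -0.24 in the knockout and -0.33 in V6.5.

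Of 11 enzymes of amino acid and one-carbon synthesis, 2 fell and 0 rose, with 6 and 0 at an unadjusted p under 0.05 and 2 and 0 with robust eBayes in limma. Cth, which makes cysteine from cystathionine, had -0.80 in the knockout and -0.92 in V6.5, and Aldh1l2, a mitochondrial folate enzyme, had -0.45 in the knockout and -0.46 in V6.5. Gpt2 (-0.46 in the knockout, -0.29 in V6.5) and Cbs (-0.46 in the knockout, -0.16 in V6.5) did not pass. All 11 enzymes were below 0 in the knockout, and 10 of them in V6.5 as well; the list median was -0.45 in the knockout and -0.16 in V6.5.

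Of 19 other ATF4 or CHOP targets, 5 fell and 0 rose in limma, with 7 and 0 at an unadjusted p under 0.05 and 5 and 0 with robust eBayes. Stc2, a secreted glycoprotein, had -1.24 in the knockout and -0.89 in V6.5. Nupr1, a small stress-induced chromatin protein whose promoter stretch stands above, had -0.90 in the knockout and -0.72 in V6.5, and fell by 0.81 ± 0.09 (limma, SE, n = 2 arrays; adjusted p = 0.0169). Cdsn fell by 0.75, and Herpud1, of the degradation of misfolded proteins in the endoplasmic reticulum, by 0.58. Ndrg1, which hypoxia also induces, had -1.97 in the knockout and -0.94 in V6.5, a difference of -1.03 between the lines without a test. Vldlr (-0.41 in the knockout, -0.22 in V6.5) and Eif4ebp1, a repressor of cap-dependent translation (-0.32 in the knockout, -0.26 in V6.5), did not pass.

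Of 17 genes for eIF2 kinases, eIF2, its exchange factor eIF2B and phosphatase subunits, 1 fell and 0 rose in limma, with 2 and 1 at an unadjusted p under 0.05 and 1 and 0 with robust eBayes. The one that fell was Eif2s3x, the X-linked gene of the gamma subunit of eIF2, with -0.52 in the knockout and -0.69 in V6.5, a call lost when its 2 features were fitted alone (adjusted p = 0.0593 in limma). The double-stranded RNA sensor Eif2ak2 had 0.25 in the knockout and 0.35 in V6.5, and Eif2b1 had -0.22 in the knockout and -0.21 in V6.5, neither of which passed. Of 20 genes of the ATF6 and XBP1 arms of the unfolded protein response, 2 fell and 0 rose in limma, with 4 and 2 at an unadjusted p under 0.05 and 2 and 0 with robust eBayes. The chaperones Sdf2l1 and Calr fell by 0.51 and 0.42, and the disulfide isomerases Pdia3 (-0.27 in the knockout, -0.51 in V6.5) and Pdia4 (-0.50 in the knockout, -0.24 in V6.5) did not pass. Atf6 (0.34 in the knockout, 0.28 in V6.5) and Edem1 (0.45 in the knockout, 0.18 in V6.5) were higher and did not pass. The list median was -0.15 in the knockout and 0.02 in V6.5, and 8 of the 20 genes were below 0 on both arrays. Of 10 mitochondrial stress genes, the chaperonin Hspd1 rose, with 0.64 in the knockout and 0.63 in V6.5, and 0 fell (2 at an unadjusted p under 0.05, 0 with robust eBayes in limma). Hspa9 (-0.22 in the knockout, -0.35 in V6.5) and the protease Clpp (-0.23 in both) did not pass.

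The bZIP partners and relatives of ATF4 moved both ways, 5 up and 4 down of 17. Batf3 had 1.34 in the knockout and 1.33 in V6.5. Cebpb, a partner of ATF4 and CHOP, had 0.63 in the knockout and 0.53 in V6.5, and Cebpa and Jund rose by 0.53 each and Jun by 0.76. Maff had -0.94 in the knockout and -0.91 in V6.5, and Junb, Jdp2 and Fosl1 fell by 0.83, 0.68 and 0.62. Mafg (0.19 in the knockout, 0.43 in V6.5) and Fos (-1.70 in the knockout, -0.26 in V6.5, over 10 features) did not pass. The difference of Fos between the lines was -1.44 and has no test.

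**Figure D3:**
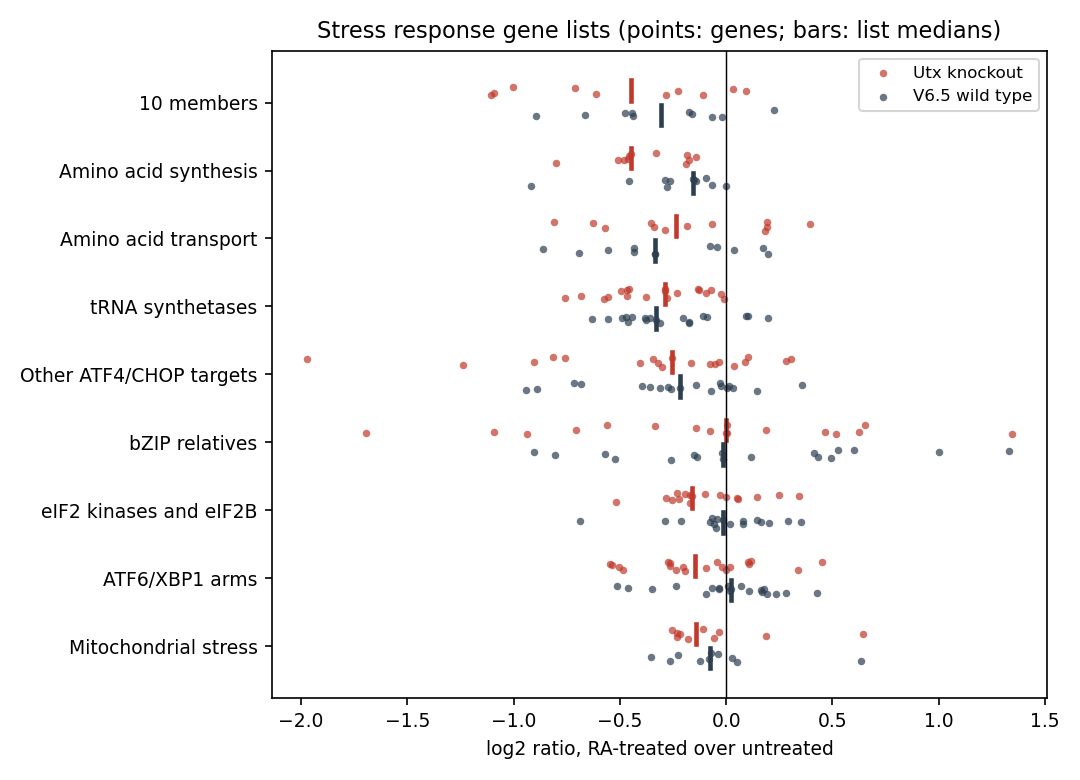
Log2 ratios of RA-treated to untreated cells (x axis) for the 10 members and the 8 related lists (rows), each point 1 gene, with the Utx knockout above in red and V6.5 below in dark blue; vertical bars are list medians and the vertical shift of points is only for display. The median of the members is -0.45 in the knockout and -0.31 in V6.5, that of the tRNA synthetases is -0.29 in the knockout and -0.33 in V6.5, and the bZIP relatives spread to both sides of 0.

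Likeness was taken as the distance over both ratios, and the related genes nearest to the 2 members with the lowest p were named. Nearest to Ddit3 were Stc2 at 0.13, Maff at 0.17 and Nupr1 at 0.27 log2 units. Nearest to Chac1 were Junb at 0.09, Nupr1 at 0.20 and Stc2 at 0.27. Only the 125 related genes were searched, and genes outside these lists can lie closer. With 2 arrays such likeness is only a closeness of 2 numbers.

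The promoter core can be set beside these values. Of the 4 members that hold it, 1 fell, Chac1. Of 95 related genes with a promoter window, 14 held the core. Of these, Nupr1, Herpud1, Tars, Gars, Iars, Jdp2 and Eif2s3x (7) fell, and 0 rose. The other 7, Slc1a4, Fgf21, Slc7a11, Aars, Got1, Vldlr and Yars, did not pass. Slc1a4 was above 0 on both arrays (0.19 in the knockout, 0.17 in V6.5). Fgf21 had 0.30 in the knockout and -0.27 in V6.5, and the rest were below 0 on both arrays. Nupr1 and Tars, whose stretches are printed above, are both among those that fell. Of all 95, 18 fell and 6 rose. Over all 17162 measured genes with a window, 658 held the core, and 7.45% of those fell, against 7.93% of all with a window. These counts are a description without a test.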

How the data were processed

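The authors deposited 1 log2 ratio for each feature of each array, read as RA-treated (Cy5) over untreated (Cy3) RNA, per the labels' dyes. Each column has a mean of 0, from which it was inferred that the log2 values were centred on each array's mean. Per the submitters' processing notes limma was used, in a role and version not stated, and how background and dye differences were corrected is not given in the sources used here. The log base was inferred from the size of the values. There was no dye swap, and signal over background is unknown.

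Of 44397 features, 33026 had 1 gene symbol in the platform annotation, 0 had several and 11371 had none; features of a gene were averaged. The shared response was fitted with limma 3.58.1 in R 4.3.3 (intercept over both arrays, eBayes, two-sided, Benjamini-Hochberg over 22485 genes, threshold 0.05), with 1 residual and 2.98 prior degrees of freedom. The fit was also run on simulated data with planted changes larger than those of the members, so that run does not bear on calls of their size. Single lines and their difference have no test. Promoters came from RefSeq (GRCm38.p6), matched by symbol. Python 3.11.15 did the rest.

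The members and gene lists were chosen with earlier results of these data known. All members are named. Of each related list, up to 4 genes that passed in each direction by lowest p are named. So are up to 2 with the largest mean that did not pass and any that differed 2-fold between lines. Of the marker lists, the ES cell markers, fibroblast markers and RA targets that passed are named without their values. Nanog, Klf2, Tdgf1 and the 3 fibroblast markers that did not pass are named with their values, chosen after these were seen. Sox2, Zfp42, Esrrb and Utf1, which did not pass either, are named without theirs. Genes named for holding the promoter core, and Slc43a1, Herpud1, Jun, Dhrs3 and Dppa4, the fifth of their counts, were chosen after their values were seen. The same holds for Atf6 and Edem1. Eif2s1, Pycr1, Dars and Gdf15 of the related lists were not analysed here. Alternatives were the median over features, 1 row per feature, median-centred arrays, arrays brought to 1 scale, robust eBayes, unnamed features in the fit and treat against 1.5-fold.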

Additional observations from a re-analysis of the deposited data

Results flagged for a closer look

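Atf3 had ratios of opposite sign in the 2 lines, 0.030 in the knockout and -0.16 in V6.5. The difference of 0.19 was not tested. The median SD between features of a gene on an array was 0.14 in both lines. Atf3 has 1 feature, and this SD does not measure spread between arrays or cultures.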

How the results depend on the processing

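Ddit3, Chac1, Psat1 and Sesn2 kept their direction and their call under 6 of 7 alternatives. Under the seventh, treat against 1.5-fold, which asks for a larger change, 0 members and 0 related genes fell and 1 related gene, Batf3, rose. The means are the same there, -1.0, -0.88, -0.59 and -0.53, with adjusted p in limma of 0.169 for Ddit3, against 0.00910 to 0.0137 in the other settings, and 0.769 for Chac1, against 0.0217 to 0.0300. Trib3 passed with arrays centred on the median (-0.69) and with arrays brought to 1 scale (-0.72), which gave 5 members that fell, and missed under the others, with an adjusted p in limma of 0.0515 to 0.0631 apart from treat. With a 1.5-fold in place of a 2-fold bound, 5 members were lower in the knockout and 2 in V6.5. Brought to 1 scale or centred on the median, 2 members rather than 3 were 2-fold lower in the knockout, since Trib3 stands at the bound. No member changed sign of its mean. Each ratio already pairs treated with untreated RNA of the same line. Replicates could not be paired between the lines, because each line has 1 array and the labels carry no replicate numbers. The calls of Eif2s3x, Slc7a5 and the ES cell marker Tfcp2l1 were lost with 1 row per feature. Signal over background is unknown, and 1 array per line limits every value.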
